A study of Mus musculus with 8 samples.

Results

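The 40 genes described here are cell cycle and DNA replication genes, namely cyclins, their kinases, E2F factors, replication genes and mitosis genes. They were taken by gene symbol from a table of 31276 genes. All 40 were found, and all 40 passed the filter on low values that left 14215 genes in the tests. The table covers 8 RNA-seq libraries of C3H10T1/2, a mouse line of multipotent mesenchymal cells from the C3H embryo. Each library came from cells that stably expressed 1 histone H3 transgene with FLAG and HA epitope tags. Of these, 6 carried H3.3, as wild type (WT) or with lysine 36 replaced by alanine (K36A), isoleucine (K36I), leucine (K36L), methionine (K36M) or arginine (K36R). The other 2 carried H3.1, as K36M or K36R. All lines were at passage 10 to 15 in DMEM with 10% fetal bovine serum, and a line without a transgene or with wild-type H3.1 was not analysed here. The labels do not say how the transgenes were delivered, whether a line is 1 clone, or that any line was derived more than once.

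Passage through the cell cycle is driven by cyclin-dependent kinases. D-type cyclins with CDK4 and CDK6 phosphorylate the retinoblastoma protein in G1, which frees E2F factors to switch on the genes of DNA replication, and cyclin E and cyclin A with CDK2 then carry cells into and through S phase. FOXM1 and B-MYB later act on the genes of G2 and mitosis, where CDK1 with cyclin B, Polo and Aurora kinases and the anaphase-promoting complex act in turn. The substitutions K36M and K36I are known to inhibit the methyltransferases of H3 lysine 36, which is why the lines with them are compared here with the others.

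Library depth lay between 45448249 and 68020958 reads, and the H3.1 libraries were the 2 shallowest, so depth and histone cannot be told apart. Every value below called a normalised read count is the number of reads on a gene divided by a size factor of its library. The labelled cell type was checked with marker genes. All 10 mesenchymal markers passed the filter, with summed counts of 528753 to 711472 normalised reads in the 3 lines with K36M or K36I and 711620 to 983679 in the other 5. Of 5 epithelial markers 1 passed (Cdh1, with Epcam at 0 in 6 libraries), of 5 leukocyte markers 0 (Cd3e at 0 in all), and of 4 endothelial markers 1. Summed counts were 293 to 1149, 28.7 to 90.7 and 115 to 322 normalised reads. The sum, carried by Col1a2, Col3a1 and Vim, was lower in the lines with K36M or K36I, but Twist1 (1192 to 1446 against 865 to 1065 normalised reads) and Twist2 (798 to 821 against 190 to 368) were higher in them. The part of these markers in the class comparison below was not tested.

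At the median the 40 genes spanned a range over the lines close to that of other genes, with fewer wide spans. From the lowest to the highest of the 8 libraries the median gene spanned 0.52 on the deposited log2 scale, against 0.56 for all tested genes. Aurka spanned least, at 0.18, and Rrm2 most, from 5211 to 13912 normalised reads. A span of at least 1 was seen for 4 of 40 (Ccnd1, Ccnd2, Cdk6 and Rrm2), which is 10%, against 21.2% of all tested genes. Among the 10933 tested genes with a mean level within that of the 40, that share was 17.6% and the median span 0.53. Per kilobase of merged exons the mean level over the libraries was highest for Ccnd1, at 11402 normalised reads, then Top2a at 10580 and Cdk4 at 6797, and lowest for E2f2 at 58.2 and Cdk6 at 105. H3.1 K36R held the highest value of 13 of the 40 (and of 14.7% of all tested genes) and H3.1 K36M of 12 (20.4%). H3.3 K36M held the lowest value of 11 (12.3%), H3.3 K36R of 8 (9.29%) and H3.1 K36M of 7 (20.7%). Exons of 15 genes overlap those of another annotated gene, 13 on the opposite strand, such as Ccna2 with Exosc9 and Ccne2 with Ints8. Whether counting used strand is not given in the sources used here, so reads of such neighbours cannot be told apart. In cultured cells measured in bulk, fewer cells in a phase of the cycle and less RNA per cell cannot be told apart.

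The first comparison asked whether the 3 lines with K36M or K36I (K36M and K36I in H3.3, and K36M in H3.1) differed from the other 5. Cyclin A2 fell in them, and it was the only 1 of the 40 genes past adjusted p 0.05 (limma, Benjamini-Hochberg over all tested genes, two-sided). That is 2.5% of the genes, against 13.3% of all tested genes (1887, with 917 higher and 970 lower, the lower ones being 6.82%). With library medians set equal the calls over all genes were 1156 higher and 805 lower. Of the 40 differences 20 were positive and 20 negative, with a median of -0.01, the same as over all genes, and their median size was 0.12 against 0.16 over all genes. At unadjusted p under 0.05 there were 7 of the 40, against 28.3% of all tested genes. The groups did not overlap for 6 of 40 (15%), against 21.5% of all tested genes: Ccnd2 and Bub1 were higher, and Ccna2, Plk1, Cdc20 and Mki67 lower. Here n counts lines, each with 1 library, so that p-values measure the spread between lines, part of which may be technical.

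The count of the 40 genes past the test depended on the fit. It was 5 with histone as a covariate (Ccna2, Ccnd2, Cdc20, Mybl2 and Plk1; 12.5%, against 20.8% of all tested genes), 4 within the H3.3 lines alone (Ccna2, Bub1, Mybl2 and Rrm2; 10%, against 17.9%) and 8 with array weights (20%, against 28.7%). It was 2 (5%) with library medians set equal (Ccna2 and Bub1), against 13.8%, or without H3.1 K36R, also against 13.8%, and 0 without H3.3 K36M, against 7.18%, where 7 had an unadjusted p under 0.05 in limma. Within H3.3, Mybl2 (B-MYB) differed by -0.34 (SE 0.07, adjusted p = 0.0244) and Rrm2, the small subunit of ribonucleotide reductase, by -0.37 (SE 0.08, adjusted p = 0.0230).

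The second comparison set the 2 H3.1 lines against the 6 H3.3 lines, with the K36M and K36I class as a term in the fit. Here 8 of the 40 genes passed the test, or 20%, against 11% of all tested genes, and all 8 were higher in the H3.1 lines, against 5.65% of all tested genes. They were the ribonucleotide reductase subunits Rrm1 and Rrm2, the cyclin Ccne2, the transcription factors E2f1, Foxm1 and Mybl2, and the mitotic kinases Cdk1 and Aurkb. Of the 40 differences 28 were positive, with a median of 0.15, where the median over all genes was 0.00. At unadjusted p under 0.05 there were 14 of 40 higher and 1 lower. Of the 14215 tested genes 2151 were higher and 2175 lower, which is 30.4% in either direction. Both H3.1 libraries lay above all 6 H3.3 libraries for 11 genes (27.5%, against 10.4% of all tested genes), and both lay below for 0, against 12.2%.

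The count of 8 rested on few libraries. It was 0 in a fit on the 4 libraries with K36M or K36R alone, where 0.08% of all tested genes were called. At unadjusted p under 0.05 in limma that fit held 7 of the 40, against 1767 of the 14215 tested genes. Without H3.1 K36M, which leaves 1 H3.1 line, the median difference of the 40 was 0.19, against -0.01 over all genes. The count of calls was as follows in other fits. It was 2 without H3.3 WT (5%, against 5.56% of all tested genes) or H3.3 K36M (5%, against 5.41%), 3 without K36L (7.5%, against 5.88%), and 4 (10%) without K36A (against 7.39%), K36I (against 4.04%) or H3.1 K36R (against 8.07%). Without H3.3 K36R it was 12 (30%, against 13.6%), with 11 higher in the H3.1 lines and 1, Mcm2, lower. It was 2 with array weights (5%, against 2.91%) or with no class term (5%, against 3.04%) and 5 with no filter (12.5%, against 5.85%), so that the share over all genes moved with that of the 40. Rrm1 and Rrm2 passed in every one of these fits that called any of the 40 genes. Over 16 alternative fits, Rrm1 and Rrm2 each lost the call in 2, Foxm1 and Mybl2 each in 8, and Aurkb in 9. E2f1 lost it in 11, and Ccne2 and Cdk1 each in 12.

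**Figure D1:**
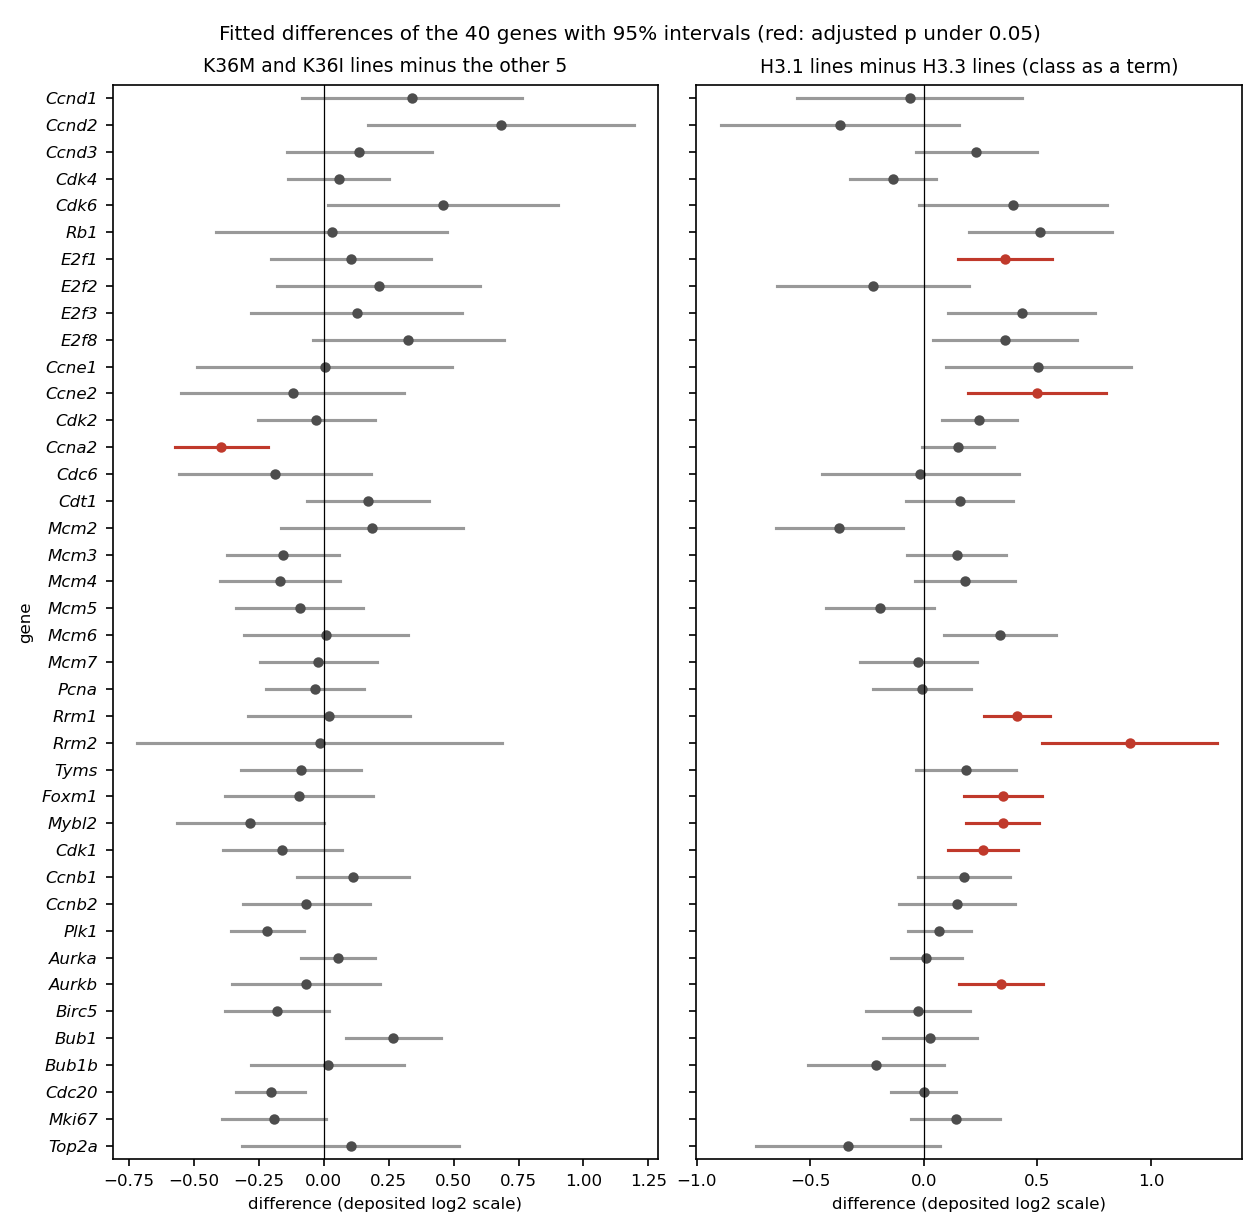
Fitted differences on the deposited log2 scale (x axis) of the 40 genes (y axis), for K36M and K36I lines minus the other 5 (left) and for H3.1 minus H3.3 lines with class as a term (right). Points are estimates, bars are 95% intervals, and red marks adjusted p under 0.05: Ccna2 alone on the left, and 8 genes on the right, all higher in H3.1.

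Promoter sequences are shown for the genes of this second set, because they were higher together and because cell cycle promoters hold known short elements. RefSeq (GRCm38.p6) gave the 250 bases before the start for 32 of the 40 genes and for 5 of the 8. E2f1 is not printed, since its window lies within the annotated gene, and the windows of Cdk1 and Rrm2 overlap the annotated gene by 26 and 13 bases. Capitals mark, on either strand, an E2F word (TTTCCCGC, TTTGGCGC, TTTCGCGC or TTTGCCGC), the cell cycle homology region core TTTGAA, and the CCAAT box. The windows run 5′ to 3′ in the direction of the gene, at chr10:69352913-69353162 on the minus strand for Cdk1 and, on the plus strand, chr7:102441445-102441694 for Rrm1, chr12:24708004-24708253 for Rrm2 and chr2:163054385-163054634 for Mybl2.
Cdk1: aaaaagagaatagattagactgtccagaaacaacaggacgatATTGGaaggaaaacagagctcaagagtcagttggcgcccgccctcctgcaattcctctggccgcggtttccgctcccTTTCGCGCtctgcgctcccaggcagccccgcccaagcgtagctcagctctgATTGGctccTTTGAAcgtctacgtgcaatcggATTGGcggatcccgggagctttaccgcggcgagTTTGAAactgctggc
Rrm1: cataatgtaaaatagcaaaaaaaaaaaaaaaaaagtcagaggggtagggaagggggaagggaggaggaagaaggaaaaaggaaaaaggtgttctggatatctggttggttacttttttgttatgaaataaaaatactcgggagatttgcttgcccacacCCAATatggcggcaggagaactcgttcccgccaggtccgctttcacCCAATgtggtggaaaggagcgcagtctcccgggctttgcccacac
Rrm2: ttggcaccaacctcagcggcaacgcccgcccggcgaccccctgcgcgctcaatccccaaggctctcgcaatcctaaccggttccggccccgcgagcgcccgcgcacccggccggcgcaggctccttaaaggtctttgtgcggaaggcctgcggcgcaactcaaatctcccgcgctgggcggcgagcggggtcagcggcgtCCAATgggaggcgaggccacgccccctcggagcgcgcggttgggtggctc
Mybl2: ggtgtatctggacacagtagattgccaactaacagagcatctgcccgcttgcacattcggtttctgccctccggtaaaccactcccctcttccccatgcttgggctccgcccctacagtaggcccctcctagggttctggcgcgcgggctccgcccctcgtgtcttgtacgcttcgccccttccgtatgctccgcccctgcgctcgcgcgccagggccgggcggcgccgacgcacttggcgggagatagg
The Cdk1 window held 1 E2F word, 2 TTTGAA and 3 CCAAT, that of Rrm1 2 CCAAT, that of Rrm2 1 CCAAT, and that of Mybl2 0 of these words. Of the 32 windows, 7 ran more than 30 bases into the annotated gene. Over the 32 genes with a window, an E2F word was present in 7 (21.88%), against 1.913% of 27025 RefSeq windows, which were not limited to tested genes. TTTGAA was present in 8 (25%), against 16.27%, and CCAAT in 22 (68.75%), against 34.46%. A match is a description of the letters only. Only these exact words were searched for, so a window without one may hold other forms of these elements. Among the 5 genes higher in H3.1 lines that had a window, 1 held an E2F word (20%), 1 TTTGAA (20%) and 3 CCAAT (60%). Among the other 27 genes with a window, the shares were 22.22%, 25.93% and 70.37%.

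The D-type cyclins and their kinases act first, in G1, and 0 of these 5 genes passed either test, with 2 at unadjusted p under 0.05 in limma for the class (Ccnd2 and Cdk6) and 0 for histone. Cyclin D2 (Ccnd2, chr6:127125162-127152193, minus strand, GRCm38) had 9053 normalised reads with H3.3 WT, 14599 with K36A, 10644 with K36L, 15163 with K36R and 7431 with H3.1 K36R, and 17055 with H3.3 K36I, 18147 with H3.3 K36M and 17844 with H3.1 K36M. The 3 lines with K36M or K36I lay close together above all others, whose own values spread widely. Means were 17682 ± 564 (SD, n = 3) and 11378 ± 3399 (SD, n = 5), a difference of 0.68 (SE 0.22, adjusted p = 0.0825) on the log2 scale. Cyclin D1 (Ccnd1, chr7:144929931-144939925, minus strand) had 47401 normalised reads with H3.3 WT, 45270 with K36A, 61946 with K36L, 53268 with K36R, 58700 with K36I and 50959 with K36M, and 75621 with H3.1 K36M and 36351 with H3.1 K36R. Both extremes of Ccnd1 were H3.1 lines and its class difference, 0.34 (SE 0.19, adjusted p = 0.274), was within the spread. It was 0.18 without H3.1 K36M, 0.11 with array weights and 0.08 within the H3.3 lines alone. Cdk6 ranged from 1008 normalised reads with H3.3 WT to 2374 with H3.1 K36M, Ccnd3 from 3531 with K36A to 5088 with H3.1 K36M, and Cdk4 from 19532 with H3.1 K36M to 24661 with H3.3 K36I. Cdk4 is the one of the 5 genes at which H3.1 K36M was lowest, whereas it was highest at Ccnd1, Ccnd3 and Cdk6.

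**Figure D2:**
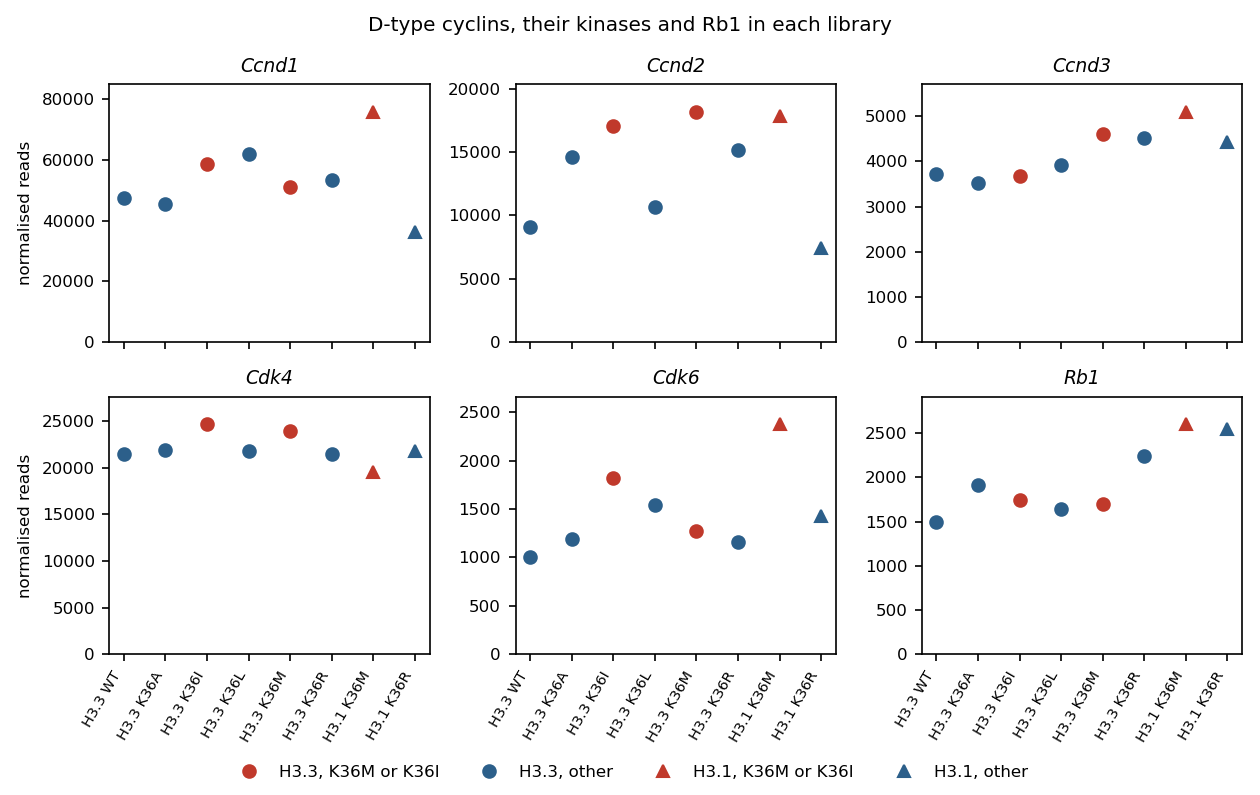
Normalised reads (y axis, from 0) of the D-type cyclins, Cdk4, Cdk6 and Rb1 in each of the 8 libraries (x axis), 1 point a library. Red marks K36M or K36I, blue the other lines, circles H3.3 and triangles H3.1; the 3 red points of Ccnd2 (17055 to 18147) lie above all 5 blue ones.

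Rb1 encodes the retinoblastoma protein that holds E2F factors in check. It had 1494 normalised reads with H3.3 WT, 1907 with K36A, 1643 with K36L, 2242 with K36R, 1740 with K36I and 1699 with K36M, against 2597 with H3.1 K36M and 2543 with H3.1 K36R. The H3.1 lines were highest, but the difference of 0.51 (SE 0.14) had an adjusted p of 0.0507. E2f1, an activating E2F, had 1534 normalised reads with H3.3 WT, 1520 with K36A, 1415 with K36L, 1723 with K36R, 1496 with K36I and 1654 with K36M, against 2153 with H3.1 K36M and 1932 with H3.1 K36R. The groups did not overlap, at 2042 ± 156 (SD, n = 2) and 1557 ± 112 (SD, n = 6), and E2f1 rose by 0.36 (SE 0.09, adjusted p = 0.0445). This call was lost in 11 of 16 alternative fits. E2f3, another activator, lay highest in the same 2 libraries (2321 and 1901) without passing (0.43, SE 0.14, adjusted p = 0.0839). E2f2 had 276 normalised reads with H3.3 WT, 238 with K36A, 268 with K36L, 239 with K36R, 289 with K36M, 219 with H3.1 K36M and 269 with H3.1 K36R, and 476 with H3.3 K36I alone. E2f8, an atypical E2F that represses E2F targets, was near 1033 to 1053 normalised reads with H3.3 K36I and H3.1 K36M and 904 with H3.1 K36R, and 619 to 687 in the other 5 lines.

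Cyclins E and A bring CDK2 into S phase, and this group held a call in each comparison. Cyclin A2 (Ccna2, chr3:36564865-36572150, minus strand), which also serves CDK1 in G2, had 17896 normalised reads with H3.3 WT, 17249 with K36A, 17088 with K36L, 17747 with K36R and 20711 with H3.1 K36R, against 13685 with H3.3 K36I, 13552 with H3.3 K36M and 13992 with H3.1 K36M. The groups were well apart, with all 3 lines with K36M or K36I below the other 5. Means were 13743 ± 226 (SD, n = 3) and 18138 ± 1477 (SD, n = 5), and Ccna2 fell by 0.39 (SE 0.08, adjusted p = 0.0126). It was called in each alternative fit but 1, the one without H3.3 K36M, where the difference was -0.38 with an adjusted p of 0.0557. Cyclin E2 (Ccne2) had 6165 normalised reads with H3.3 WT, 5786 with K36A, 6800 with K36L, 6811 with K36R, 5357 with K36I and 4693 with K36M, against 8843 with H3.1 K36M and 7562 with H3.1 K36R. It rose by 0.50 (SE 0.13) in the H3.1 lines, with an adjusted p of 0.04999, just inside the threshold. Without H3.1 K36R the difference was 0.80 (adjusted p = 0.0209) and without H3.1 K36M 0.24 (adjusted p = 0.321). Ccne1 ranged from 1058 normalised reads with K36A to 1916 with H3.1 K36M, and Cdk2 from 3946 with K36L to 5235 with H3.1 K36R, with adjusted p of 0.101 and 0.0630 for histone.

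**Figure D3:**
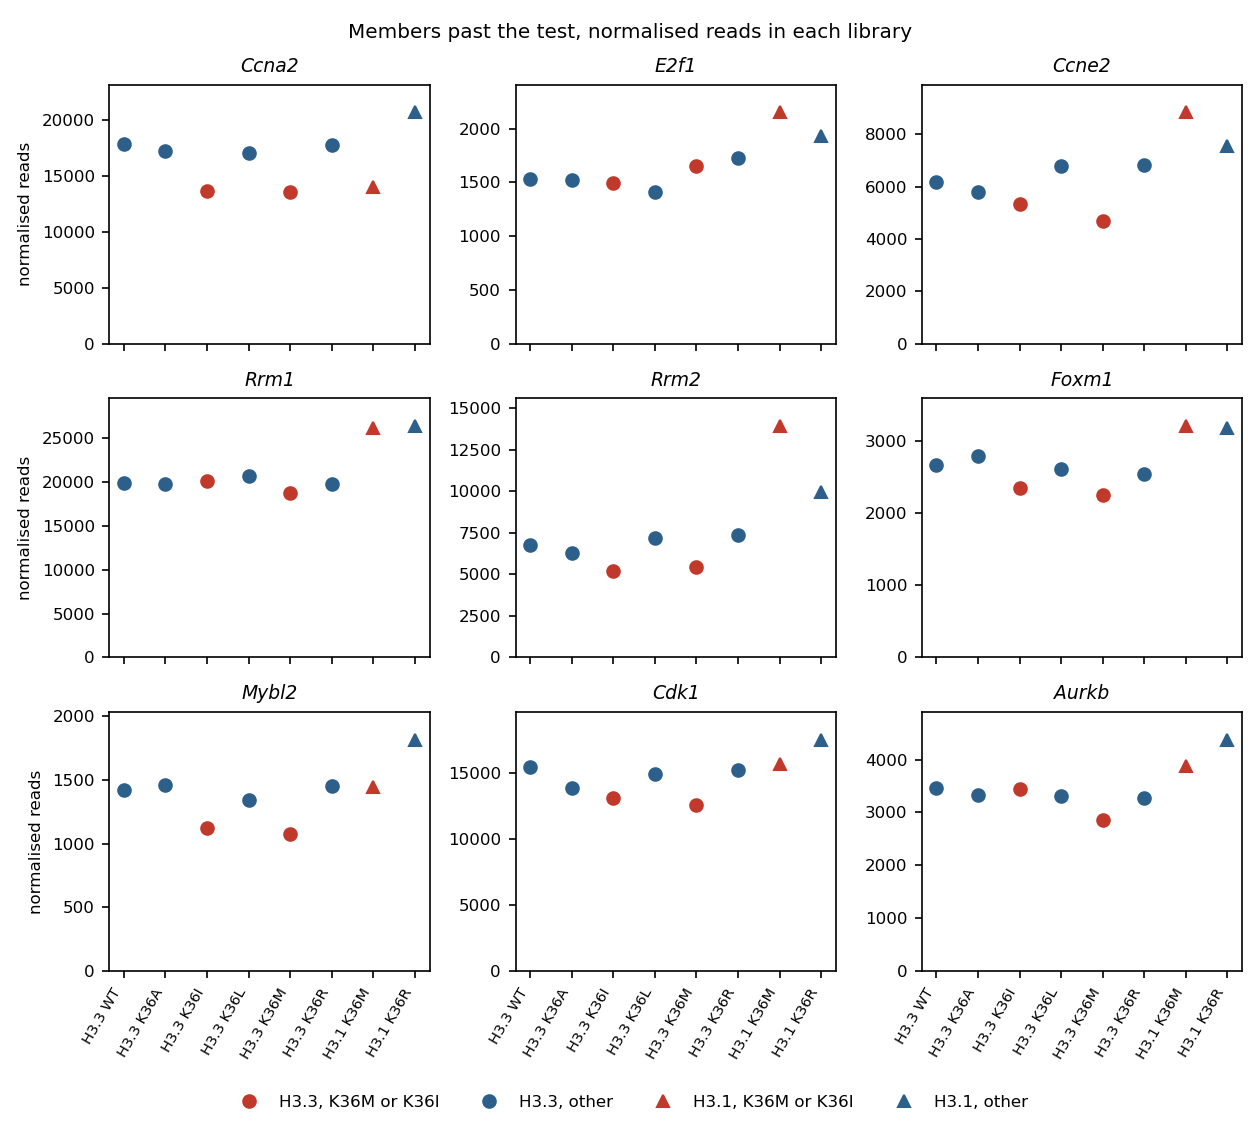
Normalised reads (y axis, from 0) in each library (x axis) for the 9 genes past either test, 1 point a library, coloured red for K36M or K36I and blue for the other lines, with circles for H3.3 and triangles for H3.1. The red points of Ccna2 (13552 to 13992) lie below all blue ones, and both triangles of Rrm1 (26139 and 26317) lie above all circles.

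Before S phase, CDC6 and CDT1 load the MCM2-7 complex, the replicative helicase, onto origins. None of these 8 genes passed either test in limma, with 0 at unadjusted p under 0.05 for the class and 2 for histone (Mcm6 higher, Mcm2 lower). Mcm5, the highest of them per kilobase (mean 4074 normalised reads), had 18258 normalised reads with H3.3 WT, 16795 with K36A, 17948 with K36L, 14705 with K36R, 17760 with K36I, 15500 with K36M, 13640 with H3.1 K36M and 15523 with H3.1 K36R. Cdc6 had 3862 with H3.3 WT, 3730 with K36A, 4610 with K36L, 2930 with K36R, 3801 with K36I, 2551 with K36M, 3391 with H3.1 K36M and 3412 with H3.1 K36R. For both genes the classes overlapped, and H3.3 K36R and H3.3 K36M were among the lower lines. Against the shared H3.3 WT library, all 8 licensing and helicase genes were lower with H3.3 K36R (median -0.31) and 7 of 8 with H3.3 K36M (median -0.18), as were 6 of 8 each with K36A, K36L and H3.1 K36M, 5 with K36I and 4 with H3.1 K36R. These are differences between single libraries. Over all tested genes the median difference was 0.00 with H3.3 K36R and -0.01 with H3.3 K36M. The H3.3 WT library held the highest value of Mcm4 and of Mcm5. MCM subunits did not share 1 pattern over the lines: Mcm2 was highest in H3.3 K36I (14783 normalised reads) and lowest in H3.1 K36R (9241), while Mcm6 was highest in H3.1 K36R (18265) and lowest in H3.3 K36R (11957).

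Of the genes of the fork and of nucleotide supply, Pcna, the sliding clamp of the polymerases, kept to 9836 to 11647 normalised reads, and its class difference was -0.03 (95% interval -0.22 to 0.15). Ribonucleotide reductase makes deoxynucleotides. Its large subunit Rrm1 (chr7:102441695-102469771, plus strand) had 19863 normalised reads with H3.3 WT, 19738 with K36A, 20610 with K36L, 19772 with K36R, 20074 with K36I and 18730 with K36M, against 26139 with H3.1 K36M and 26317 with H3.1 K36R. The 6 H3.3 lines were nearly level and both H3.1 lines stood above them, at 26228 ± 126 (SD, n = 2) against 19798 ± 614 (SD, n = 6), and Rrm1 rose by 0.41 (SE 0.06, adjusted p = 0.0110). The small subunit Rrm2 (chr12:24708241-24714146, plus strand) had 6747 normalised reads with H3.3 WT, 6295 with K36A, 7182 with K36L, 7359 with K36R, 5211 with K36I and 5409 with K36M, against 13912 with H3.1 K36M and 9936 with H3.1 K36R. The H3.1 lines were again the highest, at 11924 ± 2811 (SD, n = 2) against 6367 ± 900 (SD, n = 6), and Rrm2 rose by 0.91 (SE 0.17, adjusted p = 0.0185). Within H3.3 the lines with K36M and K36I were the lowest, while within H3.1 the K36M line was the higher. Leaving out H3.1 K36M brought the Rrm2 difference to 0.52 (adjusted p = 0.0718) and leaving out H3.1 K36R to 1.37 (adjusted p = 0.0040). Tyms, which makes thymidylate, ranged from 3719 normalised reads with K36R to 5139 with H3.1 K36R.

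FOXM1 and B-MYB act on the promoters of late cell cycle genes, and both rose in the H3.1 lines. Foxm1 had 2679 normalised reads with H3.3 WT, 2794 with K36A, 2615 with K36L, 2552 with K36R, 2351 with K36I and 2249 with K36M, against 3213 with H3.1 K36M and 3187 with H3.1 K36R. The H3.1 lines did not overlap the rest, with a difference of 0.35 (SE 0.07, adjusted p = 0.0292). Mybl2 had 1422 normalised reads with H3.3 WT, 1459 with K36A, 1342 with K36L, 1451 with K36R, 1120 with K36I and 1074 with K36M, and 1447 with H3.1 K36M and 1814 with H3.1 K36R. Here H3.1 K36M lay among the H3.3 lines without K36M or K36I and above those with them, so that the histone groups overlapped, and the difference of 0.35 (SE 0.07, adjusted p = 0.0249) rests on the class term. With no class term it was 0.29 (adjusted p = 0.290).

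Of 7 mitotic kinases, cyclins and partners, Cdk1 and Aurkb rose in the H3.1 lines, against 0 called for the class (1 at unadjusted p under 0.05 in limma, Plk1). Cdk1, the kinase of mitotic entry, had 15427 normalised reads with H3.3 WT, 13834 with K36A, 14914 with K36L, 15198 with K36R, 13095 with K36I and 12561 with K36M, against 15690 with H3.1 K36M and 17522 with H3.1 K36R. Both H3.1 values were the highest, though that of H3.1 K36M was close to H3.3 WT, and the difference was 0.26 (SE 0.07, adjusted p = 0.0465). The Cdk1 call was lost in 12 of 16 alternative fits. Aurkb, the kinase of the chromosomal passenger complex, had 3461 normalised reads with H3.3 WT, 3339 with K36A, 3310 with K36L, 3267 with K36R, 3436 with K36I and 2858 with K36M, against 3871 with H3.1 K36M and 4373 with H3.1 K36R. It differed by 0.34 (SE 0.08, adjusted p = 0.0376) with no overlap, whereas Birc5, another subunit of that complex, differed by -0.03 (95% interval -0.26 to 0.20). Polo-like kinase Plk1 was lower in each of the 3 lines with K36M or K36I (2420 ± 72.4, SD, n = 3) than in the other 5 (2834 ± 93.6, SD, n = 5), by -0.22 (SE 0.06, adjusted p = 0.0507). Aurka, Ccnb1 and Ccnb2 had class differences of 0.06, 0.11 and -0.07, none past the test.

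The spindle checkpoint kinases Bub1 and Bub1b and the anaphase activator Cdc20 gave 0 calls, with 2 of 3 at unadjusted p under 0.05 for the class and 0 for histone in limma. Cdc20 was lower in all 3 lines with K36M or K36I (6599 ± 225 normalised reads, SD, n = 3) than in the other 5 (7622 ± 214, SD, n = 5), by -0.20 (SE 0.06, adjusted p = 0.0512). Bub1 was higher in them (10104 ± 627 against 8380 ± 622, SD, n = 3 and 5), by 0.27 (SE 0.08, adjusted p = 0.0622), a difference of opposite sign to those of Plk1 and Cdc20. Bub1b had 11316 normalised reads with H3.3 WT, 10516 with K36A, 10008 with K36L, 8986 with K36R, 11476 with K36I, 11776 with K36M, 8157 with H3.1 K36M and 10420 with H3.1 K36R, with the groups overlapping by class and by histone. Within H3.3 the K36I and K36M lines were the highest, and within H3.1 the K36M line was the lower. Among the proliferation markers, Mki67 was 39993 ± 1732 normalised reads in lines with K36M or K36I (SD, n = 3) and 45772 ± 3871 in the others (SD, n = 5), a difference of -0.19 (95% interval -0.39 to 0.01, adjusted p = 0.198). Top2a, the topoisomerase that untangles sister chromatids, had 98885 with H3.3 WT, 85203 with K36A, 114798 with K36L, 77463 with K36R, 121536 with K36I, 104542 with K36M, 74802 with H3.1 K36M and 85661 with H3.1 K36R. Its values split neither by class nor by histone, and H3.3 K36I was the highest.

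Each mutant library was also set against H3.3 WT, with 1 library a side and so without a test. These 7 differences share the H3.3 WT library. Counted at a difference of at least 0.5 on the log2 scale, either way, 1 of 40 genes differed in K36A (2.5%, against 7.87% of all tested genes), 4 with K36I (10%, against 19.6%), 1 with K36L (2.5%, against 5.26%), 2 with K36M (5%, against 21.2%) and 3 with K36R (7.5%, against 7.57%). In H3.1 K36M 9 differed (22.5%, against 27.5%), all higher (14.9% of all tested genes were), and in H3.1 K36R 3 (7.5%, against 13.6%). Ccnd2 was above H3.3 WT by at least 0.5 in 5 of 7 libraries: 0.68 with K36A, 0.90 with K36I, 0.99 with K36M, 0.74 with K36R and 0.97 with H3.1 K36M. Cdc6, at -0.58 with H3.3 K36M, was the only gene that far below. The 9 genes of H3.1 K36M were Cdk6 (1.14), Rrm2 (1.03), Ccnd2, E2f3 (0.79), Rb1 (0.75), Ccnd1 (0.67), E2f8 (0.64), Ccne1 (0.61) and Ccne2 (0.51). None of the 8 licensing and helicase genes, and none of the 12 mitotic transcription factor, kinase, cyclin and checkpoint genes, differed by that much with H3.1 K36M.

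**Figure D4:**
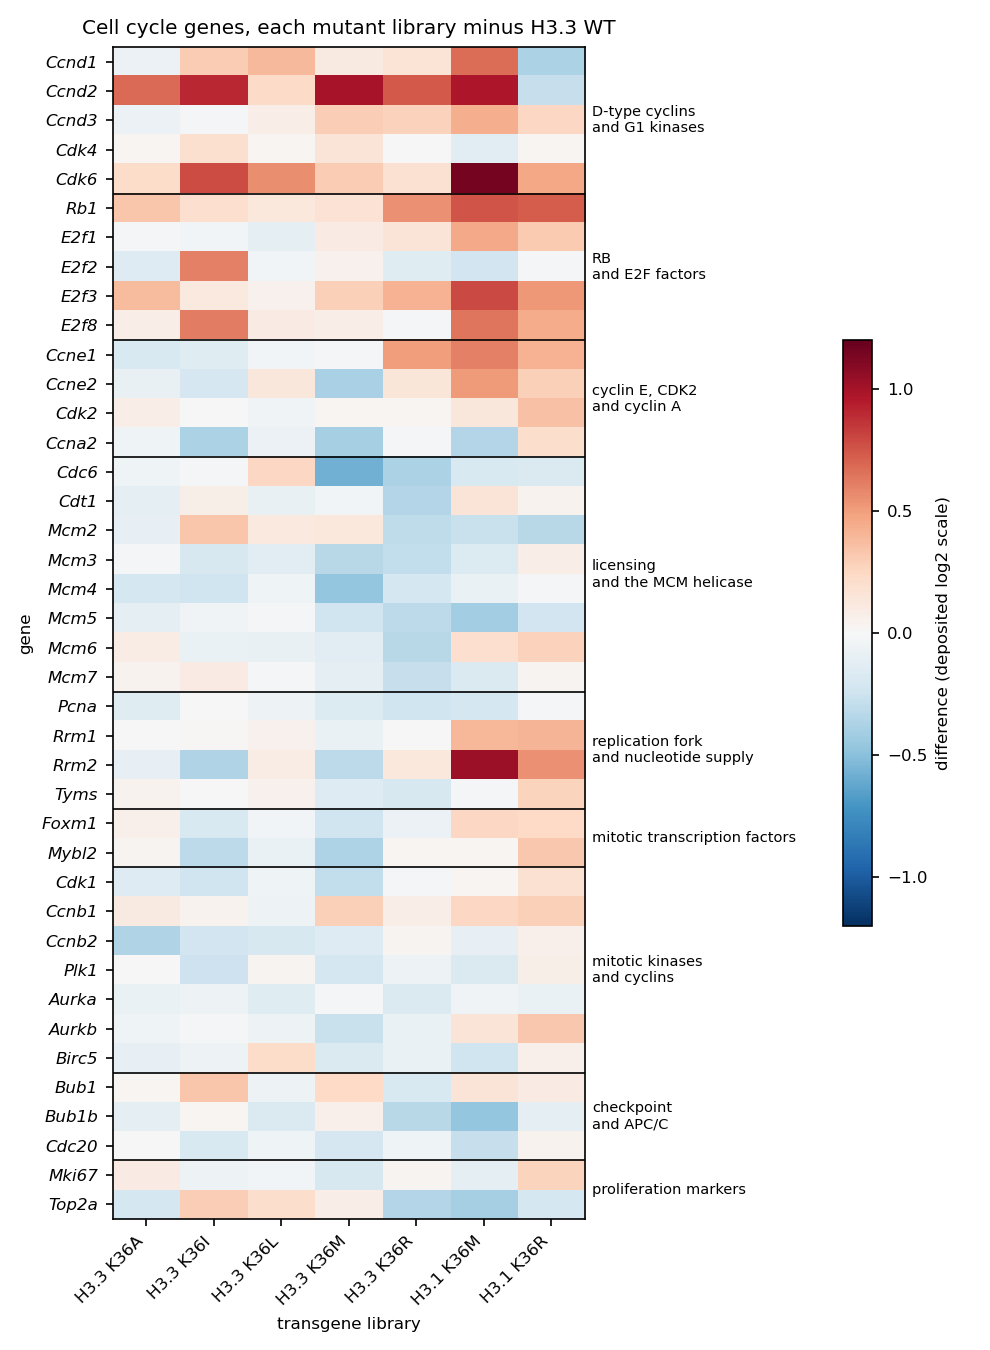
Difference of each of 7 mutant libraries (x axis) from H3.3 WT for the 40 genes (y axis, grouped by role), 1 library a side, in colour on the deposited log2 scale. Red cells gather in the D-type cyclin and E2F rows, up to 1.14 for Cdk6 with H3.1 K36M, and the H3.3 K36R column is blue at all 8 licensing and helicase genes.

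**Figure D5:**
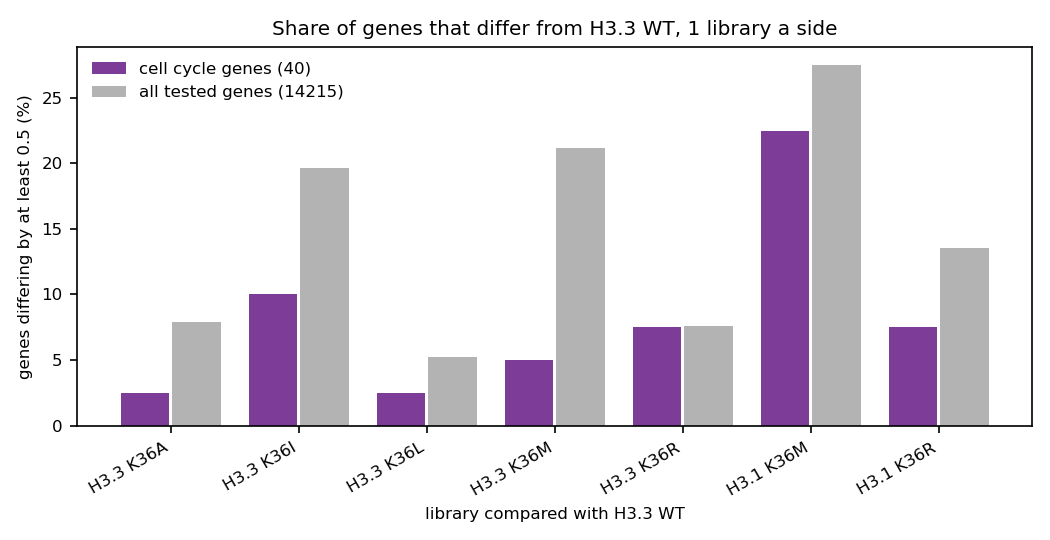
Percent of genes (y axis, from 0) that differed from H3.3 WT by at least 0.5 on the deposited log2 scale in each mutant library (x axis), for the 40 cell cycle genes (purple) and for the 14215 tested genes (grey). The purple bars run from 2.5% to 22.5% and the grey ones from 5.26% to 27.5%, and in each library the purple bar is no higher than the grey one.

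K36M can be set against K36R within each histone, without a shared library. In H3.1, 4 of 40 genes differed by at least 0.5 (10%, against 19.6% of all tested genes): Ccnd2 by 1.25, Ccnd1 by 1.05, Cdk6 by 0.68 and Ccna2 by -0.56. In H3.3, 2 of 40 did (5%, against 20.2%): Ccne1 by -0.52 and Ccne2 by -0.53. No gene of the 40 did so with the same sign in both histones, against 10.4% of all tested genes. Signs were the same for 21 of 40 (52.5%), against 63.6% of all tested genes. Ccna2 came nearest, with -0.56 in H3.1 and -0.39 in H3.3. Ccnd1 stood at 1.05 in H3.1 and at -0.06 in H3.3, and with 1 library a side this difference was not tested.

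Other genes of the cycle were read from 7 lists of 144 genes, of which 141 passed the filter. For the class, 10 of 141 were called (7.09%, against 13.3% of all tested genes), 4 higher and 6 lower. Of 12 regulators of cyclin-dependent kinases 3 were called: Wee1, the kinase that holds CDK1 inactive, rose by 0.45 (SE 0.07, adjusted p = 0.0036), with 2899 ± 24.6 normalised reads (SD, n = 3) against 2095 ± 107 in the other lines (SD, n = 5). The phosphatase Cdc25b, which counters it, fell by 0.55 (SE 0.15, adjusted p = 0.0396) and the related kinase Pkmyt1 fell by 0.33 (SE 0.09, adjusted p = 0.0363). Wee1 kept its call in all 16 alternative fits, while Cdc25b lost its call in 8 of them and Pkmyt1 in 7. With library medians set equal, Cdc25b (-0.50, adjusted p = 0.0538) and Pkmyt1 (-0.28, adjusted p = 0.0637) both lost theirs. Cdc25b also lost its call without H3.1 K36M (-0.36, adjusted p = 0.0568). The E2F, RB and DREAM list gave 2 of 13, with E2f5 up by 0.28 and the dimerisation partner Tfdp2 changed by -0.63, calls that were lost in 10 and 7 of 16 alternative fits. Of 20 origin genes 1 rose, the origin-firing kinase Cdc7 (0.40). Of 57 further mitosis genes 2 were called, Pbk (-0.46) and the kinesin Kif14 (-0.34), and 19 of the 57 differences were positive and 38 negative, with a median of -0.06, where 48.6% of all tested genes were positive. With library medians set equal 30 of the 57 were negative, with a median of -0.01, and Pbk and Kif14 lost their calls (adjusted p = 0.0644 and 0.0788). Over the 16 alternative fits Pbk lost its call in 7 and Kif14 in 10. Fork genes gave 0 of 28 in limma (4 at unadjusted p under 0.05), and Pold2 and Rpa1, with the widest spans, had differences of -0.12 and 0.33 (adjusted p = 0.798 and 0.0731). Of 4 CDK inhibitors past the filter Cdkn2d fell by 0.43 (adjusted p = 0.0230).

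For histone, 14 of the 141 were called (9.93%), 12 higher and 2 lower, against 11% of all tested genes. Over all tested genes 5.65% were called higher, and 50.0% of the differences were positive, with a median of 0.00. Mitosis genes gave 8 of 57 (14.0%), all higher, and 49 of the 57 differences were positive, with a median of 0.17. Among them were Nuf2, a kinetochore component (0.58, SE 0.10, adjusted p = 0.0146), the spindle gene Ckap2 (0.51, SE 0.11, adjusted p = 0.0289) and Hjurp, the chaperone of the centromeric histone (0.47, SE 0.07, adjusted p = 0.0101). Also higher were Mybl1 (0.62), the origin genes Orc1 (0.50) and Gins3 (0.42), and Fbxo5, an inhibitor of the anaphase-promoting complex (0.45). The polymerase delta subunit Pold2 (-0.70) and the dUTPase Dut (-0.43) were lower. Over 16 alternative fits, Hjurp lost its call in 2, Pold2 in 3, Nuf2 in 5 and Orc1 in 7. Gins3 and Ckap2 each lost it in 8, Mybl1 and Dut each in 9, and Fbxo5 in 10. CDK inhibitors gave 0 of 4 in limma (0 at unadjusted p under 0.05), and Cdkn1a and Cdkn2d had differences of -0.01 and 0.20. Without H3.1 K36M, Ckap2 differed by 0.30 (adjusted p = 0.173) and Mybl1 by 0.33 (adjusted p = 0.248), and without H3.1 K36R by 0.77 (adjusted p = 0.0144) and 0.96 (adjusted p = 0.0185). All 14 calls were lost in the fit on 4 libraries, in which 12 genes of the 14215 were called.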

How the data were processed

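RNA was taken up in Trizol and made into TruSeq libraries, per the labels' protocols. Trimmomatic 0.32, STAR 2.3.0e, featureCounts 1.4.4, DESeq2 (no version) and the build mm10 are named in the submitters' processing notes. Their order, settings, annotation and use of strand: not given in the sources used here. What the authors deposited is log2-scaled, namely gene read counts over library size factors after variance stabilisation. Each of the 8 columns names 1 transgene, and 0 columns were left without a sample. Inverting the transformation gave whole reads for 100% of values (within 0.001 reads), hence the depths. A count of 0 allows up to 3 reads, or 4.41e-06% to 6.60e-06% of the reads, for counting error only.

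Tested genes had a mean over libraries of 5.95, the lowest value, plus at least 1, about 31.0 normalised reads. With an intensity trend, limma 3.58.1 (R 4.3.3) was fitted over all 14215 such genes, two-sided, with Benjamini-Hochberg adjustment at 0.05, and was tested on simulated data. Without replicate libraries, mutants minus H3.3 WT and K36M minus K36R within a histone were counted at differences of at least 0.5. This scale shrinks differences of genes with few reads. Alternatives changed the filter, scaling, scale, weights, covariates and libraries, and 1 used limma voom on recovered reads. A count model was not fitted. Gene positions and exon lengths are from GENCODE M21 (GRCm38).

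The 40 genes and the lists were chosen with earlier results of these data known. Values in all libraries are given for genes past a test and, in each of 9 role groups, for the gene with the highest mean and the one with the widest span. From each other list, up to 3 called genes each way with the largest differences are named, or the 2 with the widest span where none passed. A called gene of these lists is not reported here.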

Additional observations from a re-analysis of the deposited data

Results flagged for a closer look

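In the 5 lines without K36M or K36I, 1 line stood far from the rest for 6 of the 40 genes. Its gap to the nearest line, divided by the range of the 5, was above the 95% critical value of Dixon's test. Chance flags about 1 in 20 groups. The share of all tested genes with such a line was not counted. H3.1 K36R, the only H3.1 line among the 5, was the high one for 5 genes, with deposited log2 values of 10.00 for E2f8, 14.35 for Ccna2, 14.69 for Rrm1, 10.92 for Mybl2 and 12.13 for Aurkb. The other 4 lines had at most 9.65, 14.14, 14.34, 10.63 and 11.81. For Mcm7 the line apart was H3.3 K36R, low at 12.74, where the other 4 had at least 13.00.

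For 6 genes the lines with K36M or K36I lay on one side of the others within H3.3. For these genes the H3.1 K36M line lay on the opposite side of H3.1 K36R. This difference was not tested, and the share of all tested genes with the same pattern was not counted. H3.1 K36M minus H3.1 K36R was -0.16 for Cdk4, -0.21 for E2f2 and -0.35 for Bub1b, which were higher with K36M and K36I in H3.3. It was 0.22 for Ccne2, 0.48 for Rrm2 and 0.01 for Foxm1, which were lower with them in H3.3. For Foxm1 the H3.1 lines were all but level.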

How the results depend on the processing

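Over all genes the class comparison called 1887, and 4074 with array weights, 2959 with histone as a covariate and 1021 to 2084 with 1 line left out; the share of higher calls moved from 48.6% to 58.9% with library medians set equal. Of the 40 genes it called 1, and 2 with medians set equal, 8 with array weights, 5 with histone as a covariate, 4 in H3.3 lines alone and 0 to 2 with 1 line left out. The histone comparison called 1567 genes, and 414 with array weights, 12 on the 4 libraries with K36M or K36R, 432 with no class covariate and 183 to 1934 with 1 line left out. Of the 40 it called 8, and 5 with no filter, 2 with array weights, 0 on the 4 libraries, 2 with no class covariate and 0 to 12 with 1 line left out. Where 1 H3.1 line was left, it was assumed to vary like the others. Against H3.3 WT, at a difference of at least 1, the count was 2 for H3.1 K36M and 0 for the other 6 libraries (0 for K36A, 0 for K36I, 0 for K36L, 0 for H3.3 K36M, 0 for H3.3 K36R, 0 for H3.1 K36R), and on log2(normalised reads + 1) at 0.5 it was 5 for H3.1 K36R.

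The 34 differences of single genes kept their direction in all 544 refits: 347 kept their side of the threshold, 185 lost a call and 12 gained one. Fits without a line or on 4 libraries have fewer lines; for the others the cause was not tested. No paired analysis was possible because each transgene has 1 library and the labels carry no replicate numbers; the fit on 4 libraries matches them by substitution, not by replicate. The lowest count of any of the 40 genes was 167 reads.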

Other observations

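Of the CDK inhibitor genes, 3 were below the filter, and their reads are given here after their values were seen. Cdkn2a had 12 reads in H3.3 K36R and 10 in H3.1 K36R, and 0 in the other 6 libraries. Its neighbour Cdkn2b had 40 reads in H3.3 K36R and 27 in H3.1 K36R, and again 0 in the other 6. A count of 0 allows up to 3 reads. Cdkn1c had 2 reads in H3.1 K36M and 0 elsewhere. The 2 lines with reads on both Cdkn2a and Cdkn2b are the 2 that carry K36R, and this was not tested.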
